A study of Mus musculus with 7 samples.

Results

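Genes of epithelial cell junctions, Cdh1, Epcam, Cldn3, Cldn4, Cldn7, Ctnnb1, Ctnnd1, Jup, Dsp and Tjp1, were followed through single cells of mouse mammary tumours and through sorted blood cells labelled as circulating tumour cells (CTCs). The 10 genes were chosen by name, for their place at the junction, with earlier results of these data known. Of the 11753 genes in the table of sorted tumour and blood cells, 9 were members of this group (Ctnnb1 has no row in the table used here), and all 10 had a row in the larger libraries of tumour cells alone. All mice carried the polyoma middle T transgene (PyMT), a model of breast cancer, and RNA was read by CEL-seq, which tags each cell and each molecule with barcodes and reads the 3' end of transcripts.

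Experiment (ii) held 4 libraries of up to 4 sorted populations, told apart by codes in the barcode table whose letters are read here as blood or tumour and as E-cadherin (Ecad) positive or negative. Blood Ecad+ wells were CTCs by label and were in library 1 alone, blood Ecad- wells were CTCs by label in all 4 libraries, and tumour Ecad- and tumour Ecad+ wells were solid tumour cells in all 4. Experiment (i) held 3 libraries of Ecad-positive tumour cells by label, which was not set beside marker genes here. Ecad is the protein of Cdh1, so the sort used the protein of a member, while the values below are transcripts. Wells with at least 500 transcripts were used, which left 20 blood Ecad+, 60 blood Ecad-, 69 tumour Ecad- and 71 tumour Ecad+ wells of 312, with medians of 3803, 819, 1603 and 2064 transcripts. The labels do not tie libraries to separate animals, and p-values therefore cover no more than the spread among the 4 libraries, which may be technical. The ages of the mice and how many were pooled are not given in the sources used here.

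E-cadherin joins neighbouring epithelial cells at the adherens junction, where its tail binds beta-catenin (Ctnnb1), p120-catenin (Ctnnd1) or plakoglobin (Jup). Claudins seal the tight junction, which ZO-1 (Tjp1) ties to actin, and desmoplakin (Dsp) anchors desmosomes to keratin filaments. EpCAM is an adhesion protein of the epithelial surface that binds claudin-7, and loss of junction genes is a textbook mark of epithelial-to-mesenchymal transition, in which Snail and ZEB repressors bind E-boxes in epithelial promoters.

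In blood Ecad- wells, Epcam and Cldn3 transcripts were low and Cdh1 transcripts were not measurably so. Epcam fell in blood Ecad- against both tumour populations, to 2.11 ± 1.03 transcripts per 10000 in blood Ecad-, against 7.36 ± 3.02 in tumour Ecad- and 15.1 ± 3.82 in tumour Ecad+ (SD, n = 4 libraries). Cldn3 fell likewise, to 0.621 ± 0.523 in blood Ecad-, against 4.66 ± 1.21 in tumour Ecad- and 6.54 ± 2.20 in tumour Ecad+. Cdh1 averaged 3.86 ± 1.59 in blood Ecad-, 4.14 ± 1.93 in tumour Ecad- and 5.85 ± 3.36 in tumour Ecad+ and did not pass the test between any of these populations.

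The promoters of Epcam and Cldn3 are shown, as these members passed the low-count filter and fell in both blood Ecad- comparisons, with capitals marking the E-box CAGGTG or its reverse complement CACCTG. The windows run from 250 bases before to 50 bases after the start of the gene, from RefSeq on GRCm38.p6, both on the plus strand. The Epcam window lies at chr17:87635729-87636028 and the Cldn3 window at chr5:134985964-134986263, just upstream of and into the first exon of each gene.
Epcam: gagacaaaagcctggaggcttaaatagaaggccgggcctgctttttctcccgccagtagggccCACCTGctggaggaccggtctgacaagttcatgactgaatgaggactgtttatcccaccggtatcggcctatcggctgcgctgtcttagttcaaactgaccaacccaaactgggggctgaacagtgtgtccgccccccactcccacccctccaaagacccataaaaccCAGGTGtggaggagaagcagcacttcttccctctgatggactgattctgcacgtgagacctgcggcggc
Cldn3: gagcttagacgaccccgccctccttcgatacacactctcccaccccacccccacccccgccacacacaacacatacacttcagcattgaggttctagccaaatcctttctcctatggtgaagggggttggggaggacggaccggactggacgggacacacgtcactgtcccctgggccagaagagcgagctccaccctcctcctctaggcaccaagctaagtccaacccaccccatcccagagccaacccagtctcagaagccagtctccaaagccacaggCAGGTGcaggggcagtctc
The Epcam window held 2 such hexamers and the Cldn3 window 1. Of the members that fell in 1 blood Ecad- comparison in a fit with no low-count filter, Cldn4 had 2 in its window and Jup had 0. RefSeq promoter windows were found for 9 of the 10 members, not for Cdh1, and 5 of those 9 genes (Epcam, Cldn3, Cldn4, Cldn7 and Dsp) had the hexamer on either strand in at least 1 window, or 5 of their 12 windows. Across all 32851 windows of this length 20.2% held it, which is 6098 of 27025 genes. The grainyhead-type palindrome AACCGGTT was in the windows of 0 members and in 0.146% of all windows. A match is a description of letters, not of binding.

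The population labels were first set beside marker genes, given as a share of all transcripts. Leukocyte markers (14 genes, such as Lyz2, S100a8 and S100a9) took 3.11% of blood Ecad+ transcripts and 6.12% to 12.3% of blood Ecad- transcripts, against 0.115% to 0.498% in tumour Ecad- and 0.214% to 0.434% in tumour Ecad+. All 14 were detected in blood Ecad- and 13 in blood Ecad+, where Ptprc was at 0, and 12 in tumour Ecad- and in tumour Ecad+, where Ptprc and Ccr2 were at 0. Luminal mammary markers (10 genes, such as Krt8, Krt18 and Csn3) took 0.127% in blood Ecad+ and 0.474% to 0.977% in blood Ecad-, against 2.13% to 4.07% in tumour Ecad- and 4.13% to 5.65% in tumour Ecad+, and Krt19, Muc1, Elf5 and Areg were at 0 in blood Ecad+. The markers therefore went against the label of the blood wells as tumour cells, which are called by their sort and not by a cell type. Endothelial markers (7 of 10 with a row, all 7 detected in tumour Ecad- and 6 in tumour Ecad+, where Emcn was at 0) ran from 0.133% to 0.306% in tumour Ecad- and from 0.0256% to 0.0669% in tumour Ecad+, and basal markers (9 of 10 with a row, all 9 detected in both) from 0.145% to 1.12% in tumour Ecad- and from 0.0337% to 0.0533% in tumour Ecad+. Populations of 1 library were separated by cell barcode, of which 72 recurred in all 4 libraries and 24 were in 1 library. Sums per library and population held 75125 transcripts in blood Ecad+, 11172 to 25379 in blood Ecad-, 17189 to 109892 in tumour Ecad- and 27416 to 71894 in tumour Ecad+. A single tumour Ecad- well of library 2 held 61227 transcripts, 55.7% of its sum, and values without it are given where it changed a call or a direction.

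Cdh1, the gene of the sorted protein, was compared first. In libraries 1 to 4, blood Ecad- held 5, 10, 7 and 4 Cdh1 transcripts, tumour Ecad- 19, 70, 4 and 5, and tumour Ecad+ 20, 26, 32 and 16. Per 10000 transcripts these were 2.04, 3.94, 5.89 and 3.58 in blood Ecad-, 5.10, 6.37, 2.20 and 2.91 in tumour Ecad-, and 3.36, 3.62, 10.6 and 5.84 in tumour Ecad+. The 3 populations overlapped, and library 3 held both the highest tumour Ecad+ value and the lowest tumour Ecad- value. Tumour Ecad- and tumour Ecad+ differed by a log2 fold change of 0.01 (SE 0.32, edgeR quasi-likelihood test, adjusted p = 0.995), and Cdh1 was higher in tumour Ecad- in 2 of 4 libraries. Blood Ecad- against tumour Ecad- gave -0.25 (SE 0.45, adjusted p = 0.706) and blood Ecad- against tumour Ecad+ gave -0.24 (SE 0.44, adjusted p = 0.702), both by edgeR. The sign in tumour Ecad- against tumour Ecad+ turned to -0.28 without the large tumour Ecad- well.

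Epcam had 3, 5, 2 and 4 transcripts in blood Ecad-, 26, 129, 10 and 9 in tumour Ecad- and 70, 91, 61 and 43 in tumour Ecad+ of libraries 1 to 4. Per 10000 these were 1.22, 1.97, 1.68 and 3.58 in blood Ecad-, 6.98, 11.7, 5.49 and 5.24 in tumour Ecad-, and 11.7, 12.7, 20.2 and 15.7 in tumour Ecad+. Blood Ecad- lay under both tumour populations in every library with no overlap, and tumour Ecad- lay under tumour Ecad+ in 4 of 4 libraries, with the highest tumour Ecad- and the lowest tumour Ecad+ library both at 11.7. The log2 fold change of Epcam in blood Ecad- against tumour Ecad- was -1.83 (SE 0.41, adjusted p = 0.000594, edgeR), a fall, and against tumour Ecad+ it was -2.59 (SE 0.38, adjusted p = 2.46e-06, edgeR). Tumour Ecad- against tumour Ecad+ gave -0.76 (SE 0.27, edgeR adjusted p = 0.0947), which did not pass. Without the large tumour Ecad- well it was -1.04 (edgeR adjusted p = 0.00286), and without replicate 2, the library that holds that well, it was -1.19 (edgeR adjusted p = 0.0196). Over the 15 alternative settings this value ran from -1.53 to -0.47 and its adjusted p from 0.00102 to 0.622. The lowest p came from limma on well means and the highest from leaving out the tumour Ecad- wells with markers of other cell types. With no low-count filter the adjusted p was 0.00907 by edgeR, so the call moved with the wells counted, the method and the filter.

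Cldn3, a tight junction claudin, had 1, 3, 0 and 1 transcripts in blood Ecad-, 14, 70, 7 and 8 in tumour Ecad- and 37, 69, 18 and 12 in tumour Ecad+. The levels per 10000 were 0.407, 1.18, 0 and 0.895 in blood Ecad-, 3.76, 6.37, 3.84 and 4.65 in tumour Ecad-, and 6.21, 9.60, 5.97 and 4.38 in tumour Ecad+. Blood Ecad- overlapped neither tumour population, while tumour Ecad- and tumour Ecad+ overlapped. Cldn3 was lower in blood Ecad-, with a log2 fold change of -2.58 against tumour Ecad- (SE 0.54, adjusted p = 0.000272 by edgeR) and -2.97 against tumour Ecad+ (SE 0.51, edgeR adjusted p = 1.87e-05). The call against tumour Ecad- was lost when only wells of at least 1500 transcripts were used (edgeR adjusted p = 0.0710). Tumour Ecad- against tumour Ecad+ gave -0.39 (SE 0.30, edgeR adjusted p = 0.495), and Cldn3 was lower in tumour Ecad- in 3 of 4 libraries. Without the large tumour Ecad- well it was -0.64 (edgeR adjusted p = 0.231).

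**Figure D1:**
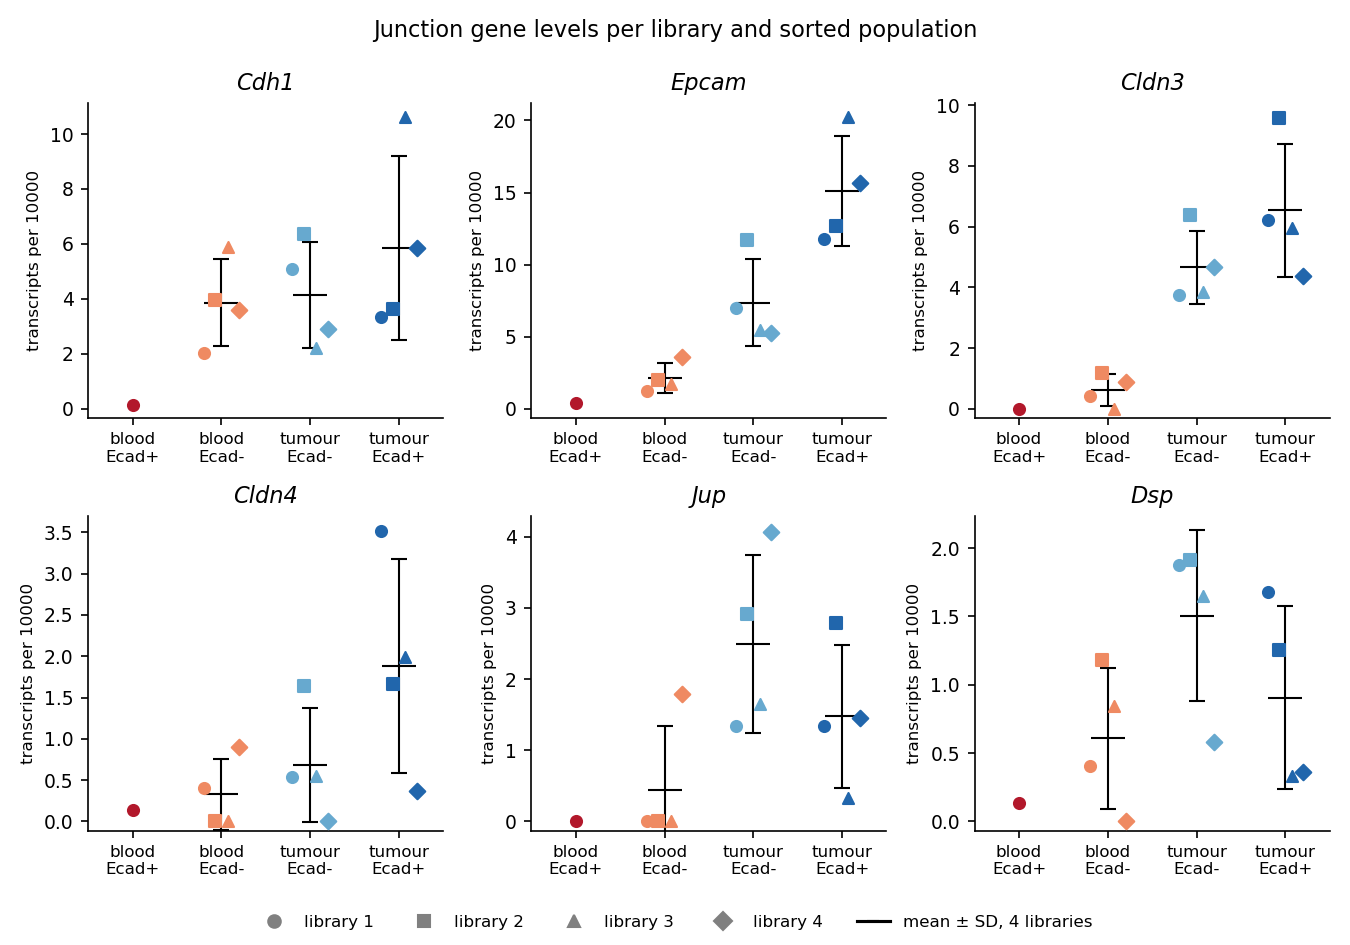
Transcripts per 10000 of 6 junction genes (vertical axes, 1 panel a gene) in blood Ecad+, blood Ecad-, tumour Ecad- and tumour Ecad+ (horizontal axes). Each point is the sum of 1 library and black bars are the mean ± SD of 4 libraries; blood Ecad+ has 1 library. Epcam and Cldn3 of blood Ecad- lie under all tumour Ecad- and tumour Ecad+ libraries, whereas Cdh1 of blood Ecad- lies among them.

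Read against all genes, 3 of the 9 members with a row passed the low-count filter. Of those 3, 0 were called in tumour Ecad- against tumour Ecad+, where 6.33% of the 490 genes tested were called (4.69% higher and 1.63% lower, or 23 and 8 genes). That split turned to 16 higher and 27 lower with limma on well means and was 52 and 47 with no low-count filter. By unadjusted p in that test, Epcam was at 0.00889 and 88 of the 490 genes were under 0.05, while limma on well means called Epcam and Cldn3 there and DESeq2 called no member. In blood Ecad- against tumour Ecad-, 2 of 3 fell, where 41% of tested genes were called and 17.1% were lower. In blood Ecad- against tumour Ecad+, 2 of 3 fell, where 48.2% were called and 21% were lower. Epcam and Cldn3 had 14 and 5 transcripts over the blood Ecad- wells and passed the low-count filter through their tumour sums. Genes that enter in this way are high in tumour from the outset. The 2 of 3 and the medians of the 3 members are therefore descriptions. The median log2 fold change of the 3 members was -0.39 in tumour Ecad- against tumour Ecad+, -1.83 in blood Ecad- against tumour Ecad- and -2.59 in blood Ecad- against tumour Ecad+, beside medians of -0.01, -0.05 and -0.08 over the 490 genes. Scaling by total transcripts alone moved the median of all genes to -0.49 in blood Ecad- against tumour Ecad- and -0.48 in blood Ecad- against tumour Ecad+, with 99 higher and 187 lower in blood Ecad- against tumour Ecad- and 110 higher and 188 lower in blood Ecad- against tumour Ecad+. Relative to 117 higher and 84 lower, and 133 higher and 103 lower, in the fits with TMM scaling, the split of calls turned. Epcam and Cldn3 stayed lower in blood Ecad-, at -2.27 and -3.03 against tumour Ecad- and at -2.99 and -3.39 against tumour Ecad+. Cdh1 moved from -0.25 to -0.67 against tumour Ecad- (edgeR adjusted p = 0.186). Against tumour Ecad+ it moved from -0.24 to -0.61 (edgeR adjusted p = 0.220). Whether the fold change of Cdh1 differs from those of Epcam and Cldn3 was not tested.

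**Figure D2:**
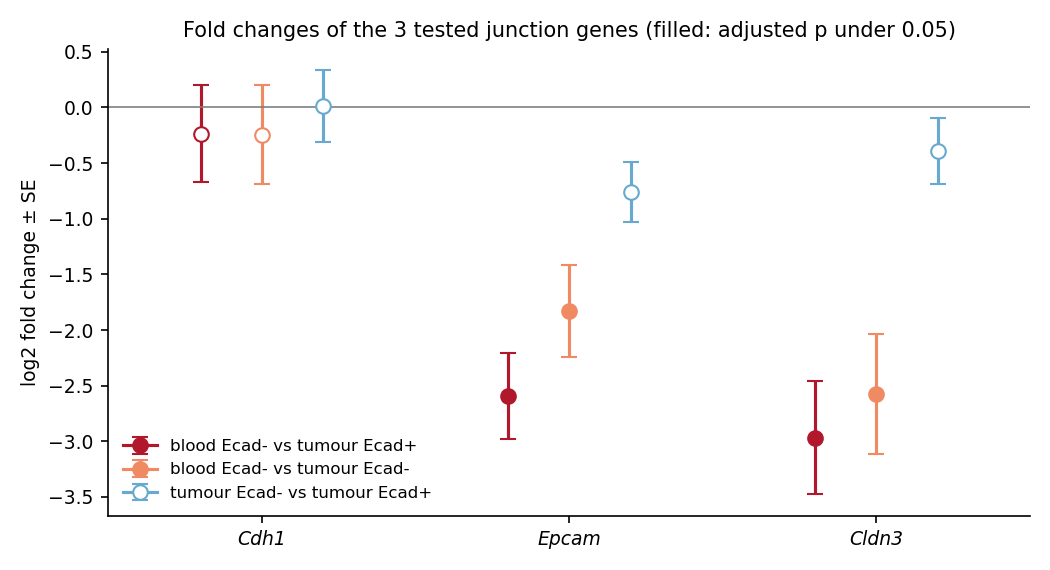
Log2 fold changes (vertical axis, bars are the SE) of Cdh1, Epcam and Cldn3 for blood Ecad- against tumour Ecad+, blood Ecad- against tumour Ecad- and tumour Ecad- against tumour Ecad+. Filled points passed an edgeR adjusted p of 0.05; the filled points are those of Epcam and Cldn3 in the blood Ecad- comparisons, at -2.59, -1.83, -2.97 and -2.58.

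The claudin Cldn4, whose gene neighbours Cldn3 on chromosome 5, had few transcripts. It had 1, 0, 0 and 1 in blood Ecad-, 2, 18, 1 and 0 in tumour Ecad- and 21, 12, 6 and 1 in tumour Ecad+, which came to 0.326 ± 0.425 per 10000 in blood Ecad-, 0.681 ± 0.687 in tumour Ecad- and 1.89 ± 1.30 in tumour Ecad+. Tumour Ecad- was lower than tumour Ecad+ in 4 of 4 libraries, though the ranges overlapped. In a fit with no low-count filter (11431 genes), 5.08% of genes were called in blood Ecad- against tumour Ecad+. There, Cldn4 was lower in blood Ecad-, at -2.88 on the log2 scale (SE 0.87, edgeR adjusted p = 0.0219). That call rested on 2 transcripts in blood Ecad- and 40 in tumour Ecad+. Blood Ecad- was lower in 3 libraries and higher in 1, and the ranges overlapped. The tumour Ecad- against tumour Ecad+ value of Cldn4 in that fit was -1.22 (SE 0.55, edgeR adjusted p = 0.736).

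Jup and Dsp, both of desmosomes, had another order of means, with tumour Ecad- above tumour Ecad+. Jup, which encodes plakoglobin of desmosomes and adherens junctions, had 0, 0, 0 and 2 transcripts in blood Ecad-, 5, 32, 3 and 7 in tumour Ecad- and 8, 20, 1 and 4 in tumour Ecad+. Per 10000 it averaged 0.448 ± 0.895 in blood Ecad-, 2.49 ± 1.25 in tumour Ecad- and 1.48 ± 1.01 in tumour Ecad+, and tumour Ecad- and tumour Ecad+ were both at 1.34 in library 1. Jup was lower in blood Ecad- than in tumour Ecad-, at -2.91 on the log2 scale in the fit with no low-count filter (SE 0.87, edgeR adjusted p = 0.0240), where 4.03% of genes were called. Against tumour Ecad+ it was -2.58 (SE 0.89, edgeR adjusted p = 0.0691). Dsp, the plaque protein of the desmosome, had 1, 3, 1 and 0 transcripts in blood Ecad-, 7, 21, 3 and 1 in tumour Ecad- and 10, 9, 1 and 1 in tumour Ecad+. It averaged 0.608 ± 0.515 in blood Ecad-, 1.505 ± 0.627 in tumour Ecad- and 0.906 ± 0.668 in tumour Ecad+. Both genes were at or above tumour Ecad+ in tumour Ecad- in 4 of 4 libraries, but neither passed there (0.33, SE 0.49, and 0.42, SE 0.56, edgeR adjusted p = 1 for both), where 0.866% of genes were called. Other desmosome genes were divided. Perp, a desmosomal membrane protein, was at 3.20 ± 1.30 in tumour Ecad- and 1.23 ± 0.396 in tumour Ecad+, higher in 4 of 4 libraries. Pkp2, a plakophilin, was at 0.205 ± 0.409 and Ppl, which encodes periplakin, at 0.135 ± 0.156 in tumour Ecad-, against 0.834 ± 0.508 and 0.759 ± 0.531 in tumour Ecad+, lower in 4 of 4 libraries each. None of these 3 passed, and they are named for having 1 direction in 4 of 4 libraries, among 10 listed desmosome genes with a row. In that fit, of the 9 members, 1 fell in tumour Ecad- against tumour Ecad+ (Epcam, -1.11, edgeR adjusted p = 0.00907), 3 fell in blood Ecad- against tumour Ecad- (Epcam, Cldn3 and Jup) and 3 fell in blood Ecad- against tumour Ecad+ (Epcam, Cldn3 and Cldn4).

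The remaining members were close to undetected in experiment (ii). Cldn7, the claudin partner of EpCAM, had 0 transcripts in blood Ecad-, 4 in tumour Ecad-, all in the large well, and 1 in tumour Ecad+. Ctnnd1 had 1 transcript in tumour Ecad-, also in that well, and 0 in blood Ecad- and tumour Ecad+, and Tjp1 had 0 in blood Ecad-, 1 in tumour Ecad- and 1 in tumour Ecad+. A count of 0 allows up to 0.411 transcripts per 10000 over the blood Ecad- wells and up to 0.159 over the tumour Ecad+ wells, as counted in this table. The sources used here do not say whether the tables of both experiments were counted with the same annotation. These floors and all intervals cover counting error only.

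In experiment (i) these genes were detected in wells labelled as Ecad-positive tumour cells. In its library 1 (95 wells, median 3083 transcripts), Cldn7 had 157 transcripts, 3.58 per 10000 (exact Poisson 95% interval 3.05 to 4.19), and was found in 60% of wells. Ctnnd1 had 32 and Tjp1 had 16 transcripts there, at 0.730 and 0.365 per 10000. Ctnnb1, which encodes beta-catenin, had 177 transcripts, 4.04 per 10000, and was found in 58.9% of wells. The tables of the experiments were made separately, so levels across them are given side by side with no test. Of 656 genes with at least 100 transcripts in library 1 of experiment (i), 49 (7.47%) had no row in the table of experiment (ii), and 63 (9.60%) had under 10 transcripts in its 140 tumour wells. Ctnnb1 is among the 49 and Cldn7 among the 63.

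Cdh1 and Epcam were the most abundant members in experiment (i). In library 1, Cdh1 had 484 transcripts (11.05 per 10000, 10.1 to 12.1) and Epcam 480 (10.96 per 10000, 9.998 to 11.98). In library 2 (65 wells, median 883 transcripts), Cdh1 had 58 transcripts (8.29 per 10000, 6.29 to 10.7) and Epcam 29 (4.14 per 10000, 2.78 to 5.95). Cdh1 intervals of the libraries overlapped and those of Epcam did not. Cldn3 differed in the same way, at 2.58 per 10000 (2.13 to 3.10) in library 1 and 0.429 (0.0884 to 1.25) in library 2, whereas Dsp was at 1.28 (0.966 to 1.66) and 1.86 (0.989 to 3.18). CEL-seq counts 1 tag a molecule, so these levels do not scale with transcript length, although capture may differ between genes. Library 3 of experiment (i) had 1 well past the minimum and was not used for levels.

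**Figure D3:**
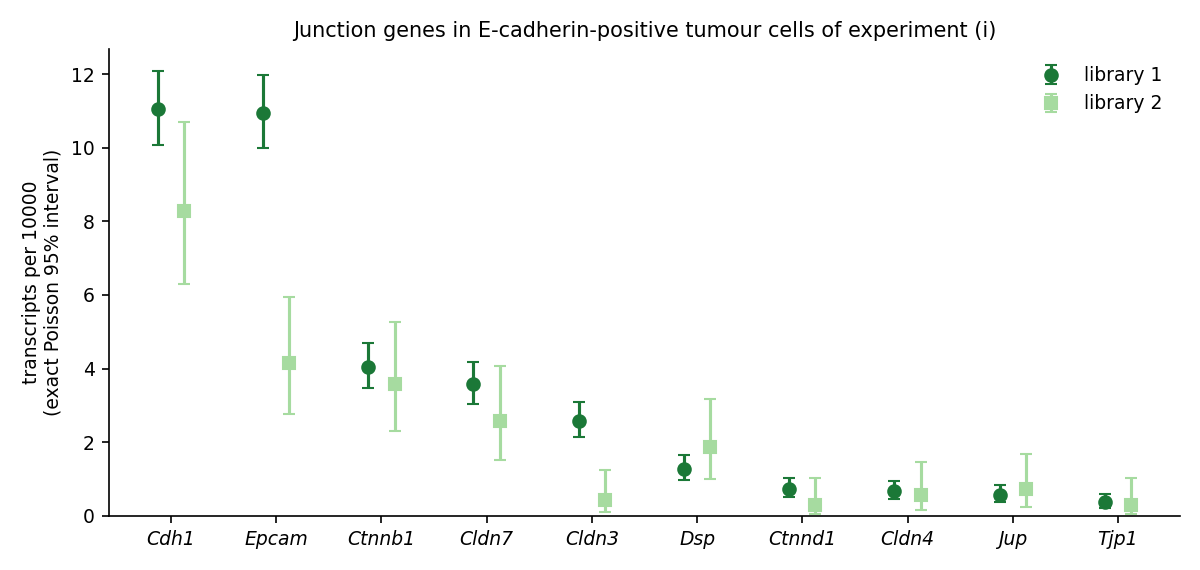
Transcripts per 10000 (vertical axis, bars are exact Poisson 95% intervals) of the 10 members in library 1 (95 wells) and library 2 (65 wells) of experiment (i). Cdh1 and Epcam are highest in library 1 and Cdh1 in library 2, Ctnnb1 and Cldn7 lie at 2.57 to 4.04, and Epcam and Cldn3 are lower in library 2.

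Detection per well was compared at an equal depth, as the share of wells expected to show a transcript if every well were thinned to 500 transcripts. For Epcam this was 9.68 ± 3.57% of wells in blood Ecad-, 26.4 ± 2.57% in tumour Ecad- and 50.9 ± 7.14% in tumour Ecad+ (SD, n = 4 libraries), and no library of 1 population reached the range of another. Unthinned, 12 of 60 blood Ecad-, 42 of 69 tumour Ecad- and 62 of 71 tumour Ecad+ wells had an Epcam transcript. For Cldn3 the thinned shares were 2.41 ± 2.32% in blood Ecad-, 19.8 ± 3.76% in tumour Ecad- and 28.9 ± 5.33% in tumour Ecad+, with 4, 30 and 50 wells unthinned. Tumour Ecad- and tumour Ecad+ did not overlap in these shares, with 24.7% in the highest tumour Ecad- library and 25.3% in the lowest tumour Ecad+ library. For Cdh1 they were 19.7 ± 7.13% in blood Ecad-, 15.1 ± 6.02% in tumour Ecad- and 25.3 ± 12.7% in tumour Ecad+, with 20, 31 and 43 wells unthinned, and all ranges overlapped. Free RNA can give transcripts in cells that do not express a gene, and its part in these shares was not tested. Blood Ecad+ wells, with few luminal markers and the greatest depth, had Cdh1 in 5% and Epcam in 15% of wells, or 0.627% and 2.05% thinned.

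**Figure D4:**
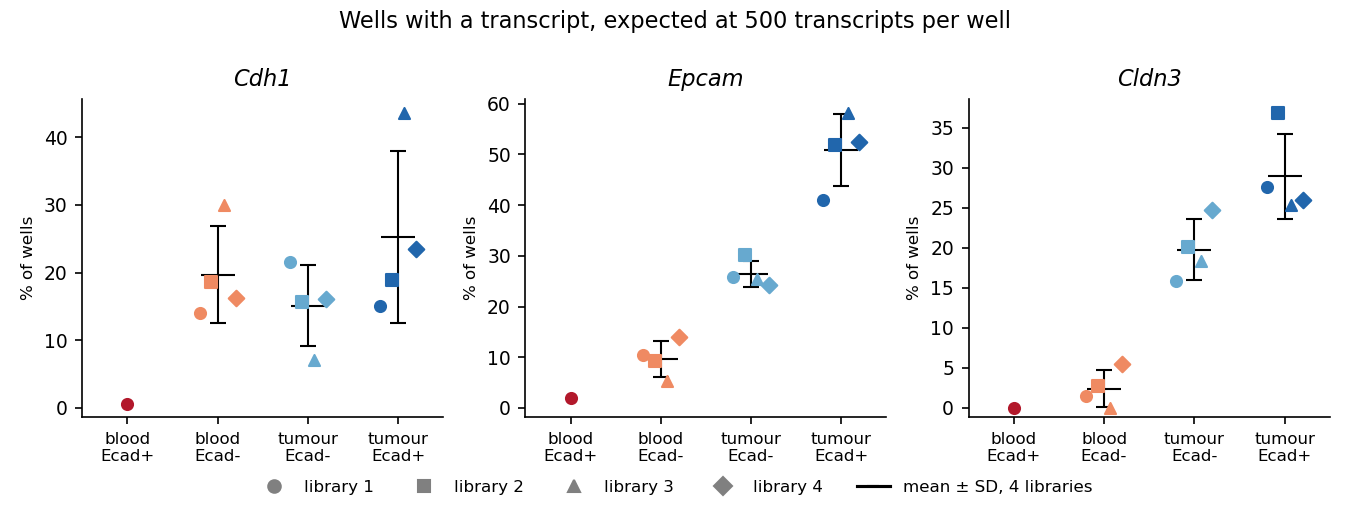
Percent of wells with a transcript of Cdh1, Epcam or Cldn3 expected at 500 transcripts per well (vertical axes) in blood Ecad+, blood Ecad-, tumour Ecad- and tumour Ecad+. Each point is 1 library and black bars are the mean ± SD of 4 libraries; Epcam falls in 3 separate bands (blood Ecad- 9.68%, tumour Ecad- 26.4%, tumour Ecad+ 50.9%), whereas the Cdh1 ranges overlap.

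Cdh1 and Epcam transcripts stood in different proportions. Of the summed Cdh1 and Epcam transcripts, Cdh1 made up 62.5%, 66.7%, 77.8% and 50% in blood Ecad- of libraries 1 to 4. The shares were 42.2%, 35.2%, 28.6% and 35.7% in tumour Ecad- and 22.2%, 22.2%, 34.4% and 27.1% in tumour Ecad+. All blood Ecad- shares were above all tumour shares of experiment (ii), on 40 blood Ecad- transcripts in all. The blood Ecad+ share was 25%, on 1 Cdh1 and 3 Epcam transcripts. Pooled, Cdh1 was 65% in blood Ecad- (exact binomial 95% interval 48.3% to 79.4%), 36.03% in tumour Ecad- (30.3% to 42.05%) and 26.2% in tumour Ecad+ (21.7% to 31.1%). In experiment (i) it was 50.2% (47.003% to 53.4%) in library 1 and 66.7% (55.7% to 76.4%) in library 2. Both shares of these wells, Ecad-positive tumour cells by label, lay within the range of the blood Ecad- libraries. No member was found in 1 of 95 wells of library 1 and 23 of 65 wells of the shallower library 2. Marker shares were not computed for experiment (i), so its label was not checked.

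As a share of the tumour Ecad+ level, the blood Ecad- level of Cdh1 was 65.98%, with libraries between 55.6% and 109%. The same share was 14.02% for Epcam (8.33% to 22.8%) and 9.50% for Cldn3 (0% to 20.4%). On few transcripts it was 67.1% for Dsp (0% to 254%), 30.3% for Jup (0% to 123%) and 17.3% for Cldn4 (0% to 245%). Luminal genes lay nearer to Epcam and Cldn3 than to Cdh1, at 13.97% for Krt8, 11.1% for Krt18, 7.66% for Wfdc18, 10.1% for Csn3, 18.6% for Trf and 25.7% for Lcn2. These genes were among the 10 luminal markers, and all 6 tested fell in blood Ecad- in both comparisons by edgeR. All 13 tested of 14 leukocyte markers rose. Of the 490 genes tested, 17.1% were lower and 23.9% higher against tumour Ecad-, and 21% and 27.1% against tumour Ecad+. Markers that pass the low-count filter through 1 side are high there from the outset, so these counts are descriptions. The part of leukocytes in the members' levels was not tested. Leukocyte markers took a median of 8.15% of transcripts in the 20 blood Ecad- wells with Cdh1 (range 0.266% to 32.1%) and 14.6% in the 40 without. They took 4.26% in the 12 blood Ecad- wells with Epcam and 13.5% in the 48 without. Luminal markers took medians of 0.816% with Cdh1 and 0.693% without it. For Epcam the luminal medians went the other way, at 0.415% with it and 0.754% without it. These wells were pooled over libraries, whose leukocyte share ran from 6.12% to 12.3%. Wells with Cdh1 or Epcam transcripts were deeper, at medians of 1010 with Cdh1 and 789 without it, and 1207 with Epcam and 781 without it.

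Of the blood wells, 3 of 20 blood Ecad+ and 2 of 60 blood Ecad- wells had a leukocyte share no higher than the highest tumour Ecad+ well (0.902%). The 3 blood Ecad+ wells held 2 member transcripts among 11991 transcripts, 1 of Epcam and 1 of Dsp. The 2 blood Ecad- wells held 2 among 5032, 1 of Cdh1 and 1 of Epcam, both in 1 well of library 3. Their luminal shares were 0.0263% to 0.0685% in blood Ecad+ and 0.296% and 0.677% in blood Ecad-. The medians over all wells were 4.50% in tumour Ecad+, 2.16% in tumour Ecad-, 0.703% in blood Ecad- and 0.114% in blood Ecad+. A median does not show how low single tumour wells lie.

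Blood Ecad+ was compared within library 1 alone, as values with no test. It held 1 Cdh1, 3 Epcam, 0 Cldn3, 1 Cldn4, 0 Jup and 1 Dsp transcripts in its 75125. The blood Ecad+ level of Epcam was 0.399 per 10000, against 1.22 in blood Ecad-, 6.98 in tumour Ecad- and 11.7 in tumour Ecad+. Blood Ecad+ was lower in Epcam than both tumour populations, with a tumour Ecad- over blood Ecad+ ratio of 17.5 (95% interval 5.36 to 90.2) and a tumour Ecad+ over blood Ecad+ ratio of 29.4 (9.66 to 146), by counting error alone. Cldn3 was not found in blood Ecad+, where a count of 0 allows up to 0.399 per 10000, against 3.76 in tumour Ecad- and 6.21 in tumour Ecad+. Cdh1 was at 0.133 per 10000 in blood Ecad+, against 2.04 in blood Ecad-, with a blood Ecad- over blood Ecad+ ratio of 15.3 and an interval of 1.71 to 723. In that library, the blood wells labelled Ecad-positive had fewer Cdh1 transcripts per 10000 than those labelled Ecad-negative.

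Tumour Ecad- wells were unequal in their other markers. Of 69 tumour Ecad- wells, 33 exceeded every tumour Ecad+ well in the summed share of leukocyte (2 wells), endothelial (24) or basal (11) markers. In these 33 wells Epcam was at 4.79 per 10000 (exact Poisson 95% interval 3.23 to 6.84), Cldn3 at 2.39 (1.34 to 3.95) and Cdh1 at 3.67 (2.33 to 5.51). In the other 36 wells Epcam was at 12.01 (10.1 to 14.1), Cldn3 at 7.01 (5.59 to 8.67) and Cdh1 at 6.26 (4.92 to 7.84). Without the large well, the remaining 35 had Epcam at 7.67 (5.60 to 10.3), Cldn3 at 5.28 (3.59 to 7.501) and Cdh1 at 3.75 (2.35 to 5.68). Within libraries the split was not uniform. Epcam was at 7.69 in the wells above and 4.27 in the others of library 3, on 5 transcripts each, against the direction of libraries 1, 2 and 4. Jup was at 3.03 (1.83 to 4.74) in the 33 wells and 1.88 (0.936 to 3.36) in those 35, with 4.66 and 1.60 in library 2, and it was lower in the wells above in libraries 1, 3 and 4 (0.995 and 1.75, 1.54 and 1.71, and 4.03 and 4.19). Over tumour Ecad+ wells pooled in the same way, Epcam was at 14.02, Cldn3 at 7.19, Cdh1 at 4.97 and Jup at 1.75.

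**Figure D5:**
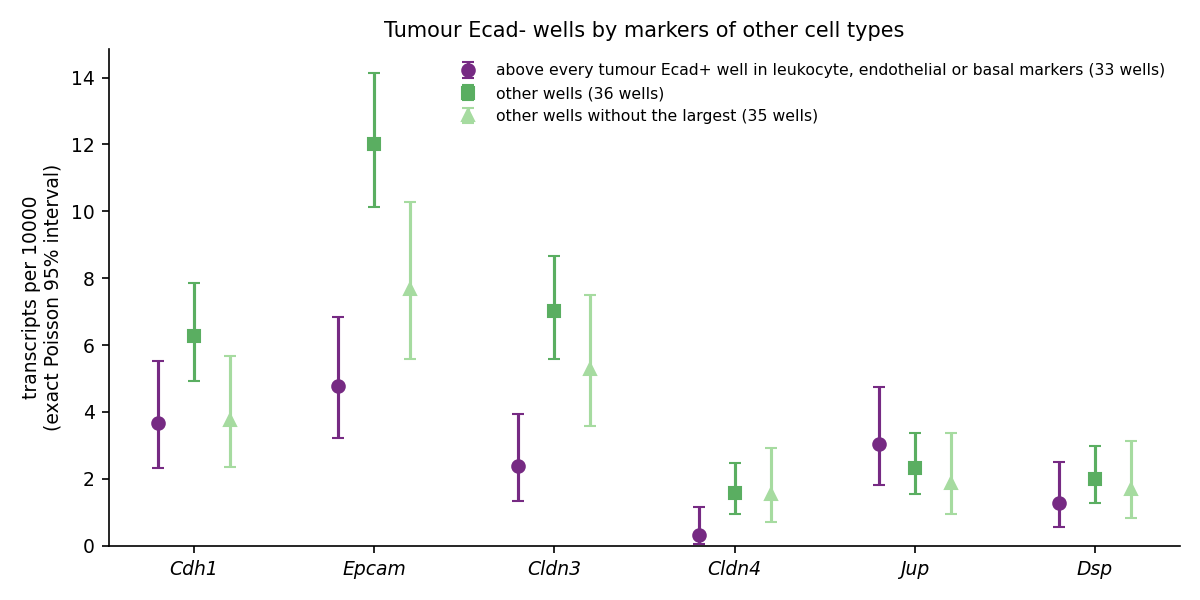
Transcripts per 10000 (vertical axis, bars are exact Poisson 95% intervals) of 6 members in tumour Ecad- wells, split by whether a well exceeds every tumour Ecad+ well in leukocyte, endothelial or basal markers. Epcam lies at 4.79 in the 33 wells above, 12.01 in the other 36 and 7.67 in those without the largest well, and the Cdh1 intervals of the first and last sets largely coincide.

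The large tumour Ecad- well shaped several values of library 2. It held 53 of 70 Cdh1, 99 of 129 Epcam, 53 of 70 Cldn3, 17 of 32 Jup and 14 of 21 Dsp transcripts. Its Epcam level was 16.1 per 10000, against 6.19 in the rest of that sum, and its Cdh1 and Cldn3 levels were both 8.68, against 3.51 for each in the rest.

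Members found together in a well were counted next. At least 3 of the members were found in 0 of 20 blood Ecad+, 2 of 60 blood Ecad-, 24 of 69 tumour Ecad- and 45 of 71 tumour Ecad+ wells. In libraries 1 and 2 of experiment (i) they were found in 81 of 95 and 15 of 65 wells. Experiment (ii) was counted over 9 members, of which Cldn7, Ctnnd1 and Tjp1 were close to undetected, and experiment (i) over 10. The counts of the experiments are therefore not like for like. No member was found in 15 blood Ecad+, 31 blood Ecad-, 7 tumour Ecad- and 2 tumour Ecad+ wells, which differ in depth as given above. In blood Ecad-, 5 wells had both Cdh1 and Epcam, 15 had Cdh1 alone, 7 Epcam alone and 33 neither. In the same order the counts were 21, 10, 21 and 17 in tumour Ecad- and 38, 5, 24 and 4 in tumour Ecad+. In library 1 of experiment (i), Epcam was found in 92.6% of wells with Cdh1 and 64.3% of those without. Median depths there were 3578 and 1522 transcripts. In library 2 the shares were 40% and 13.3%, at median depths of 931 and 877.

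Across wells of 1 population of experiment (ii), Cdh1 and Epcam levels hardly followed each other. Pearson's r of Cdh1 with Epcam, over transcripts per 10000, was -0.02 over 60 blood Ecad- wells, -0.09 over 69 tumour Ecad- wells and 0.07 over 71 tumour Ecad+ wells, and 0.13 over the wells of either library of experiment (i). Spearman's r of the same pair was 0.05 in blood Ecad-, -0.02 in tumour Ecad- and 0.05 in tumour Ecad+. It was 0.19 in library 1 and 0.30 in library 2 of experiment (i). Larger Pearson values among the other pairs of members were 0.49 for Cldn3 with Cldn4 and 0.35 for Epcam with Cldn4 in tumour Ecad-. Only 10 tumour Ecad- wells had Cldn4. Epcam with Ctnnb1 was at 0.31 in library 2 of experiment (i). In tumour Ecad+ the Cldn3 and Cldn4 value was 0.08. Wells share library and depth, counts were sparse, and no order among such values is drawn. Over the 12 sums, r of the TMM-scaled log2 levels was 0.88 for Epcam with Cldn3, 0.40 for Cdh1 with Epcam and 0.06 for Cdh1 with Cldn3, as a description of sums that share 4 libraries and 3 populations. By the same measure the genes nearest to Epcam were Phlda1 (0.94), Lcn2 (0.93) and Csn3 (0.92), those nearest to Cldn3 were Trf (0.97), Emid1 (0.97) and Cd81 (0.95), and those nearest to Cdh1 were Eef1b2 (0.76), Hnrnpk (0.74) and Wdr89 (0.68).

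Other genes of the junctions were read from the same fits. Of 20 listed adherens junction genes 10 had a row, of 26 tight junction genes 21, of 13 desmosome genes 10 and of 10 EpCAM partners 9, but beside the members only Cd9, a tetraspanin, passed the low-count filter. Cd9 rose in blood Ecad- against tumour Ecad+, by 0.80 (SE 0.30, edgeR adjusted p = 0.0284), at 8.47 ± 3.95 per 10000 in blood Ecad- and 6.22 ± 2.96 in tumour Ecad+, higher in 3 of 4 libraries, and this was lost with no filter (0.26, edgeR adjusted p = 0.972). With no filter, over the 70 genes of the 8 lists of members, junctions, cadherins, repressors and epithelial regulators, 1 rose and 1 fell in tumour Ecad- against tumour Ecad+, 7 were called in blood Ecad- against tumour Ecad-, all lower, and 1 rose and 6 fell in blood Ecad- against tumour Ecad+. Over all 11431 genes of that fit, 2.58% were lower and 2.5% higher in blood Ecad- against tumour Ecad+. The shares were 1.68% lower and 2.35% higher in blood Ecad- against tumour Ecad-. They were 0.411% lower and 0.455% higher in tumour Ecad- against tumour Ecad+. Most of these genes failed the low-count filter, and the lists were not compared with genes of like counts. The counts over the lists are therefore descriptions, and no enrichment is drawn from them.

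F11r, which encodes the junctional adhesion molecule JAM-A, was lower in blood Ecad- than in tumour Ecad-, at -2.35 on the log2 scale (SE 0.71, edgeR adjusted p = 0.0266), and lower than in tumour Ecad+, at -2.50 (SE 0.70, edgeR adjusted p = 0.00950), on 4 transcripts in blood Ecad-, 58 in tumour Ecad- and 55 in tumour Ecad+. Esrp1, a splicing factor of epithelial cells, had 0 transcripts in blood Ecad-, 24 in tumour Ecad- and 34 in tumour Ecad+ and was called lower in blood Ecad- in both comparisons (edgeR adjusted p = 0.00703 against tumour Ecad- and 0.000512 against tumour Ecad+). The desmosomal cadherin Dsg2 had 0 in blood Ecad- and 18 in tumour Ecad- (edgeR adjusted p = 0.0476), and the epithelial transcription factor gene Ehf had 5 in blood Ecad- and 65 in tumour Ecad+ (-2.51, SE 0.64, edgeR adjusted p = 0.00289). Zeb2, a repressor of Cdh1 in epithelial-to-mesenchymal transition that leukocytes also express, had 11 transcripts in blood Ecad- and 1 in tumour Ecad+ (3.803, SE 1.12, edgeR adjusted p = 0.0165). Cdh5, the cadherin of endothelial cells, had 65 transcripts in tumour Ecad- and 3 in tumour Ecad+ (3.92, SE 0.70, edgeR adjusted p = 1.06e-05) and was lower in blood Ecad-, with 4, than in tumour Ecad- (-2.49, SE 0.72, edgeR adjusted p = 0.0165). Snai1, Snai2, Zeb1 and Twist1 were not called in any of these comparisons. All 5 listed repressors with a row had under 30 transcripts in both populations of each comparison, so the lack of a call says little about change.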

How the data were processed

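CEL-seq values of 4 libraries (experiment (ii), 312 wells) and 3 libraries (experiment (i), 96 wells each) were used. The authors' deposited tables give estimated counts of transcripts for each gene in each well, with no normalization. Every value in the 4 tables equals, to within 1e-09 of a barcode, the estimate of molecules from a whole number of the 256 barcodes of 4 bases. Reads were mapped with BWA 0.6.2-r126 to mm10, per the submitters' processing notes; the sources used here do not name the counting step or its use of strand and shared reads. Cells were sorted into Trizol and read on a NextSeq500, per the labels' protocols. No doublet caller was run, since 1 cell was sorted per well.

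Wells of at least 500 transcripts without spike-ins were summed per library and population and rounded, and the library was the replicate. Blood Ecad-, tumour Ecad- and tumour Ecad+ sums were fitted together with edgeR 4.0.16 in R 4.3.3 (quasi-likelihood test, TMM, filterByExpr, 490 genes, library as block), with Benjamini-Hochberg adjustment over all genes tested and a threshold of 0.05. The fit was tested on simulated data. The pairing by library comes from the barcode table, and residuals within a library had r of 0.0608 to 0.351 (12 pairs), against those of different libraries with r of -0.297 to 0.143 (36 pairs). Blood Ecad+ and experiment (i) had no test. Levels are transcripts per 10000, Poisson and binomial intervals are exact at 95%, and detection at 500 transcripts was computed from the hypergeometric distribution (scipy 1.17.1). Alternatives used DESeq2 1.42.0, limma 3.58.1 (well means, pseudocount 1) and other filters, wells and scalings.

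Members and lists were chosen with earlier results of these data known. Genes named are all members, the listed junction, cadherin, repressor and regulator genes past the threshold, and the 3 genes most correlated with each tested member.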

Additional observations from a re-analysis of the deposited data

Results flagged for a closer look

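For Jup, the share of tumour Ecad- wells expected to show a transcript at 500 transcripts was 7.056% in library 1, on 5 Jup transcripts. It was 9.81%, 10.2% and 10.2% in libraries 2, 3 and 4, and the flag arose because these lay close together. Chance flags about 1 in 20 such groups. Members and populations were screened in this way by level and by detection, so a flag of this kind can arise by chance.

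The levels of Epcam and Cldn4 were ordered in opposite ways between Ecad- and Ecad+ wells of blood and of tumour, on equal counts in blood. Blood Ecad- wells exceeded blood Ecad+ wells by 0.8223 transcripts per 10000 for Epcam and by 0.2741 for Cldn4 in library 1, whereas tumour Ecad- lay under tumour Ecad+ in 4 of 4 libraries for both genes. This difference was not tested, and the blood values rest on 3 Epcam transcripts and 1 Cldn4 transcript in each population. The blood Ecad- over blood Ecad+ ratios had 95% intervals of 0.410 to 22.8 for Epcam and 0.0390 to 240 for Cldn4, by counting error alone. No direction in blood is established by these counts.

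Wells under 500 transcripts, which entered no comparison, also held members. Blood Ecad- wells held 4 Cdh1 and 5 Epcam transcripts, tumour Ecad- wells 5 Cdh1 and 4 Epcam transcripts, and tumour Ecad+ wells 5 Cdh1 and 8 Cldn3 transcripts. Library 3 of experiment (i) held 6 Ctnnb1 transcripts over its 96 wells.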

How the results depend on the processing

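Each of the 3 tested members was refitted in the 3 comparisons under 15 alternatives, which gave 135 values. Direction and side of the threshold held in 118. The lower Epcam of blood Ecad- against tumour Ecad- and tumour Ecad+ was called in all 15. Cdh1 changed sign in tumour Ecad- against tumour Ecad+ with no replicate block (-0.11), without replicate 1 (-0.27) and 2 (-0.51), with DESeq2 (-0.12), with limma on well means (-0.67), with no low-count filter (-0.36) and without the largest tumour Ecad- well (-0.28), and leaving out each replicate gave -0.51 to 0.51. It changed sign in blood Ecad- against tumour Ecad- without replicate 1 (0.032) and 2 (0.079) and without that well (0.15), and leaving out each replicate gave -0.52 to 0.079. The cause was not tested. With limma on well means, Cldn3 was called in tumour Ecad- against tumour Ecad+ (-0.85, limma adjusted p = 0.0433) and Cdh1 in blood Ecad- against tumour Ecad+ (-0.70, limma adjusted p = 0.0476). In that last comparison Cdh1 kept its sign in all 15 alternatives, from -0.77 to -0.013.

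Counts of called genes moved more. Tumour Ecad- against tumour Ecad+ called 31 genes, 20 with no replicate block, 99 with no low-count filter, 17 with wells of at least 1000 transcripts, 55 without the largest tumour Ecad- well, 9 without tumour Ecad- wells above every tumour Ecad+ well in other markers, and 19 (without replicate 1) to 42 leaving out each replicate. Blood Ecad- against tumour Ecad- called 201, 315 with limma, 461 with no filter, 111 and 123 with wells of at least 1000 and 1500, and 168 to 223 leaving out each replicate. Blood Ecad- against tumour Ecad+ called 236, 374 with limma, 581 with no filter, 125 and 133 with those wells, and 193 to 258 leaving out each replicate. Fewer genes and wells were tested at the higher minimums. Of the 9 members with a row, 6 failed the low-count filter.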
